A study of Mus musculus with 2 samples.

Results

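The genes of prostaglandin synthesis, breakdown and reception were followed in cultured cells from mouse gonadal fat, taken from the table by a fixed list of 10 symbols that was drawn up with earlier results of these data known. All 10 were among the 24091 genes of the deposited table. They comprised 7 genes of synthesis (Ptgs1, Ptgs2, Ptges, Ptges2, Ptges3, Ptgis and Ptgds), 1 gene of breakdown (Hpgd) and 2 receptor genes (Ptger2 and Ptger4). RNA sequencing gave 1 library from sham-irradiated C57BL/6 mice and 1 library from C57BL/6 mice given pelvic radiation, which the labels describe by 7.5 Gy and 5 days without saying if the dose was daily. Both titles also carry the word PBS, whose role the labels leave unsaid. In both conditions the gonadal fat was taken 2 months after radiation or sham treatment, freed with collagenase, and the floating cells were kept 3 days in culture. The sources used here do not give age, sex or how many mice went into a library. Since 1 library stood for each condition, nothing could be tested between conditions, and each difference describes these 2 libraries.

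Prostaglandins are short-lived lipid messengers made from arachidonic acid, which phospholipases free from membranes. The cyclooxygenases, encoded by Ptgs1 and Ptgs2, turn it into a common precursor, and separate synthases then make prostaglandin E2, prostacyclin or prostaglandin D2 from that precursor. Hpgd encodes the dehydrogenase that inactivates prostaglandins, and Ptger2 and Ptger4 encode receptors for prostaglandin E2 that raise cyclic AMP. In fat, prostaglandins are known to act on lipolysis, on the formation of adipocytes and on inflammation, and Ptgs2 is the cyclooxygenase gene best known for induction by cytokines and injury.

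The promoters of the cyclooxygenase genes and of Ptges are shown because they cover the shared first step and the inducible prostaglandin E synthase. In the results that follow, Ptgs2 differed most between the libraries, Ptgs1 differed less, and Ptges differed little. Each window holds 250 bases before and 50 bases after the annotated start, from RefSeq on GRCm38.p6, read 5′ to 3′ on the gene's strand. Ptgs2 lies at chr1:150099781-150100080 on the plus strand, Ptgs1 at chr2:36230176-36230475 on the plus strand and Ptges at chr2:30903248-30903547 on the minus strand. Capitals mark the motifs found.
Ptgs2: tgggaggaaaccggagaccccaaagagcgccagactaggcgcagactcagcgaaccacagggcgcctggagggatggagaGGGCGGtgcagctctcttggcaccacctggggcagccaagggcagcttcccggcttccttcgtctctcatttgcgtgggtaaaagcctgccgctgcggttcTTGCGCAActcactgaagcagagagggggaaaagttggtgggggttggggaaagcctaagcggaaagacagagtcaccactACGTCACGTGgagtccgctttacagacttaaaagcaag
Ptgs1: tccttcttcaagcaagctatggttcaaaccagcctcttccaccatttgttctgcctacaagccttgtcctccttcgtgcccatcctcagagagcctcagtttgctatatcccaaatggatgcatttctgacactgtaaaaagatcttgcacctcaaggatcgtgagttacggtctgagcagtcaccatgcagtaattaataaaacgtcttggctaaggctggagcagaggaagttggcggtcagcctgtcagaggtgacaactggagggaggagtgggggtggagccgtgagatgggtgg
Ptges: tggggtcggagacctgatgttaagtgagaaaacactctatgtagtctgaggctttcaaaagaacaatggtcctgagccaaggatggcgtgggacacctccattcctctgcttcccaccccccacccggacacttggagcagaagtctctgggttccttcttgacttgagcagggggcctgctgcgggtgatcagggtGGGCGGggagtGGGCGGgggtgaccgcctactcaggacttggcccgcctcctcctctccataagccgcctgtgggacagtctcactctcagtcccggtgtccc

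The motifs were searched on both strands. They were the TATA box (TATAAA), the half-site of the cyclic AMP response element (TGACGT), the E-box (CACGTG), a C/EBP motif (TTGCNNAA), the GC box (GGGCGG) and the kappa B motif. The Ptgs2 window held the cyclic AMP half-site from position 13 after the start, overlapping an E-box from position 17. It also held a C/EBP motif 69 bases before the start and a GC box 170 bases before it. Over all 32851 windows of this length, the cyclic AMP half-site was present in 7.51%, the E-box in 7.15%, the C/EBP motif in 10.8% and the GC box in 35.7%. The Ptges window held 2 GC boxes, 53 and 42 bases before the start. None of these letters was found in the Ptgs1 window, and the TATA box (13.6% of all windows) and the kappa B motif (8.46%) were in none of the 3 printed windows. The GC content was 59.3% for Ptgs2, 50.7% for Ptgs1 and 60.0% for Ptges, against a median of 52.7% over all windows. Ptgds, Ptges2, Hpgd, Ptges3, Ptger2 and Ptger4 also had a window, and Ptgis had none.

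The libraries held 30600000 fragments in the sham-irradiated condition and 35000000 in the irradiated condition, as recovered from the deposited values. Levels are given as FPKM, counted fragments scaled to the length of the gene and to the library total, so that genes of unlike length can be compared. A difference is the deposited log2(FPKM + 0.1) of the irradiated library minus that of the sham-irradiated library. Because of the constant, differences come out smaller where FPKM is low. Intervals are exact 95% Clopper-Pearson intervals of the log2 ratio of recovered fragments per library total. They cover counting error only. A gene was kept if either library reached an FPKM of 1, which left 11253 genes, 8 of the 10 prostaglandin genes among them. The median difference over the genes kept was 0.02, and the middle 90% of them lay between -0.27 and 0.46.

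The labels name primary adipocytes, and the 14 marker genes of mature fat cells ranged widely in level, with 9 of them under an FPKM of 1 in both libraries. Adipoq, the gene of the fat hormone adiponectin, had an FPKM of 0.133 without radiation and 0.232 after radiation, on 5 and 10 fragments. Plin1, which coats lipid droplets, had 0.254 and 0.478, on 26 and 56 fragments. Fabp4, a fatty acid binding protein gene, had 96.9 in each library, and Lpl, the lipoprotein lipase gene, had 68.02 and 66.6; both were named after their values were seen. Pdgfra, a marker of fibroblasts and adipose progenitors, had 95.6 and 73.9, and Col1a1, a fibrillar collagen, had 1937 and 1428. Markers of more than one cell type were thus present, and the prostaglandin gene levels cannot be assigned to one of them. In such bulk RNA, fewer cells of a type and less RNA per cell cannot be told apart.

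Prostaglandin genes were expressed over a wide range, and their order was the same in both libraries. Ptges3 stood highest, followed by Ptgis, Ptgs2, Ptgs1, Ptges, Hpgd, Ptges2, Ptger4, Ptger2 and Ptgds. The summed FPKM of the 7 synthesis genes was 270.5 without radiation and 353.6 after radiation. That of the 2 receptor genes was 3.55 and 4.66. These sums cover unlike numbers of genes, and Ptges3 alone gave 123.54 and 116.06 of the synthesis sums. Gene by gene, every synthesis gene except Ptgds stood above both receptor genes in both libraries. No order could be tested, since each condition had 1 library.

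**Figure D1:**
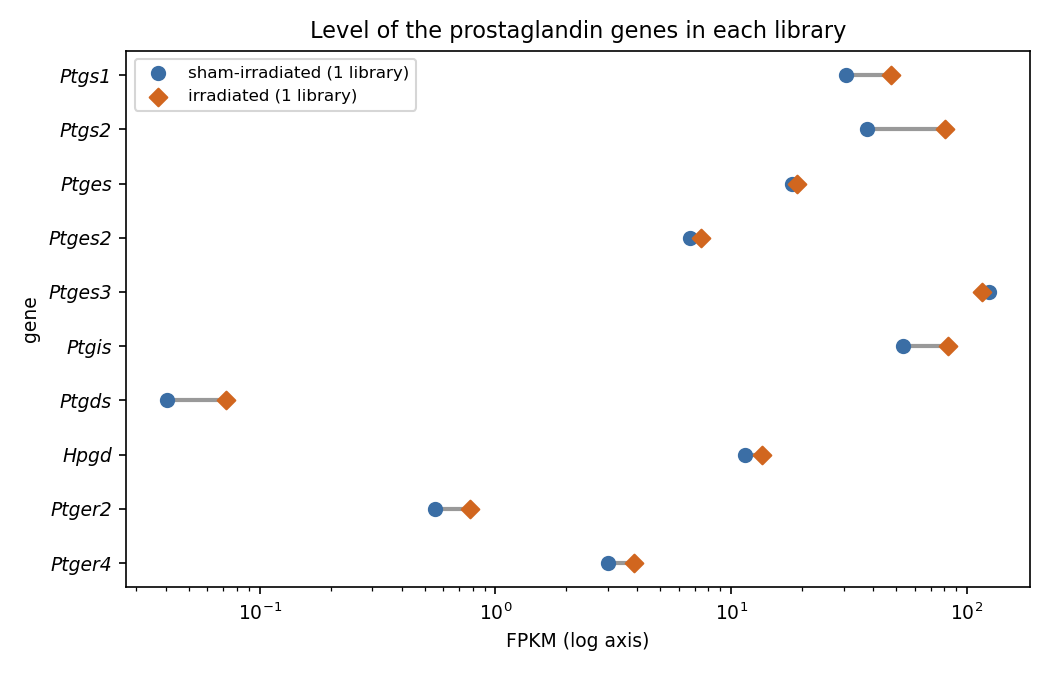
FPKM (log axis) of the 10 prostaglandin genes in the sham-irradiated library (circles) and the irradiated library (diamonds), 1 library each, with no error bars because there were no replicates. Ptgs2, Ptgs1 and Ptgis lie further right in the irradiated library, from 37.7 to 80.3, 30.8 to 47.4 and 53.7 to 83.2, while Ptges3 lies slightly further left, from 123.54 to 116.06.

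The synthesis genes differed by step. Both cyclooxygenase genes and the prostacyclin synthase gene were higher in the irradiated library, while the 3 prostaglandin E synthase genes were within 0.16 of the sham-irradiated library on the log2 scale. The median difference of the 6 synthesis genes with more than 3 fragments was 0.39, against 0.02 for all genes kept. The 2 receptor genes had a median difference of 0.395, and Hpgd a difference of 0.24.

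Ptgs2, the inducible cyclooxygenase gene (chromosome 1, 150100031 to 150108234 on mm10), was at an FPKM of 37.7 without radiation and 80.3 after radiation. These values rest on about 5129 and 12513 fragments. The difference was 1.09, with a counting interval from 1.04 to 1.14, which corresponds to a ratio of 2.13. It was the largest difference of the 10 genes, and 59 of the 11253 genes kept had a larger one. By level, Ptgs2 stood at rank 1498 of all genes in the sham-irradiated library and at rank 628 in the irradiated library.

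Ptgs1, the cyclooxygenase gene expressed constitutively in many tissues (chromosome 2, 36230426 to 36252271 on mm10), was at an FPKM of 30.8 and 47.4 in the sham-irradiated and irradiated libraries. The difference was 0.62, with a counting interval from 0.55 to 0.69. The ratio of Ptgs2 to Ptgs1, both per length, was 1.22 without radiation and 1.69 after radiation. On the log2 scale this ratio was higher by 0.47 in the irradiated library, with a counting interval from 0.39 to 0.55. Ptgs2 thus made up 55.0% of the summed cyclooxygenase FPKM without radiation and 62.9% with it. The summed FPKM of both genes was 68.5 and 127.75, a ratio of 1.86.

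Ptgis, the gene of prostacyclin synthase (chromosome 2, 167203196 to 167240537 on mm10), was at an FPKM of 53.7 without radiation and 83.2 after radiation. Its difference was 0.63, with a counting interval from 0.56 to 0.70, close to that of Ptgs1. The ratio of Ptgis to Ptgs1, chosen after the values were seen, was 1.74 and 1.75, and its log2 shift of 0.0093 had a counting interval from -0.09 to 0.10. Ptgds, the gene of the lipocalin-type prostaglandin D synthase, had 1 fragment without radiation and 2 after radiation. Both counts are under the 3 fragments that a count of 0 allows, so no fold is given for this gene (chromosome 2, 25466712 to 25469749), and the limits for a gene of its length were an FPKM of 0.123 and 0.107.

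The genes of the prostaglandin E synthases showed small differences. Ptges encodes the inducible membrane enzyme that works closely with the product of Ptgs2, and it had an FPKM of 18.03 without radiation and 19.1 after radiation. Its difference was 0.08, with a counting interval from -0.0055 to 0.17 that included 0. Ptges2, the gene of a second membrane-associated enzyme, had 6.67 and 7.47, a difference of 0.16 with a counting interval from -0.03 to 0.35. Ptges3, whose product p23 is also a co-chaperone of Hsp90, had 123.54 and 116.06. It was the only one of the 9 genes with more than 3 fragments that was lower in the irradiated library, with a difference of -0.09 and a counting interval from -0.14 to -0.04. The annotation holds 1 pseudogene named after Ptges3, and fragments of such copies could have been shared in counting.

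Ptges3 stood above Ptgis in both libraries, and Ptgis above Ptges. The ratio of Ptgis to Ptges, chosen after the values were seen, was 2.98 without radiation and 4.36 after radiation, a log2 shift of 0.55 with a counting interval from 0.44 to 0.66. The ratio of Ptges to the sum of Ptges2 and Ptges3 was 0.138 and 0.154. These genes lie on chromosome 2 from 30889471 to 30903297 (Ptges), on chromosome 2 from 32395890 to 32402740 (Ptges2) and on chromosome 10 from 128058982 to 128077254 (Ptges3). The ratios compare RNA levels and not enzyme activity or product, neither of which was measured.

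Hpgd, the gene of the inactivating dehydrogenase (chromosome 8, 56294552 to 56321046 on mm10), was at an FPKM of 11.5 without radiation and 13.5 after radiation. The difference was 0.24, with a counting interval from 0.09 to 0.40. The ratio of Ptgs2 to Hpgd, chosen after the values were seen, was 3.29 and 5.93, a log2 shift of 0.85 with a counting interval from 0.69 to 1.01. The experimental transcript Gm45540 is annotated over Hpgd on the same strand, and Gm43621 over Ptgs1 on the opposite strand, so fragments of these genes may not be fully separable. This ratio concerns these 2 genes and does not rank synthesis against breakdown as a whole.

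Ptger4, the gene of the EP4 receptor (chromosome 15, 5233399 to 5244187 on mm10), was at an FPKM of 3.00 without radiation and 3.87 after radiation. The difference was 0.36, with a counting interval from 0.16 to 0.59. Ptger2, the gene of the EP2 receptor, on chromosome 14 from 44988111 to 45003820, had 0.555 and 0.783, on 64 and 103 fragments, and did not reach the FPKM of 1 needed to be kept. Its difference was 0.43, and its counting interval, from 0.03 to 0.97, was the widest of the 9 genes. Antisense transcripts are annotated over Ptger2, and the counting is not stated to have used strand. Ptger4 was the more abundant receptor gene in both libraries, at 5.39 and 4.95 times the FPKM of Ptger2. The log2 shift of that ratio was -0.12, with a counting interval from -0.62 to 0.37, so no shift between the receptors was detectable at this depth.

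**Figure D2:**
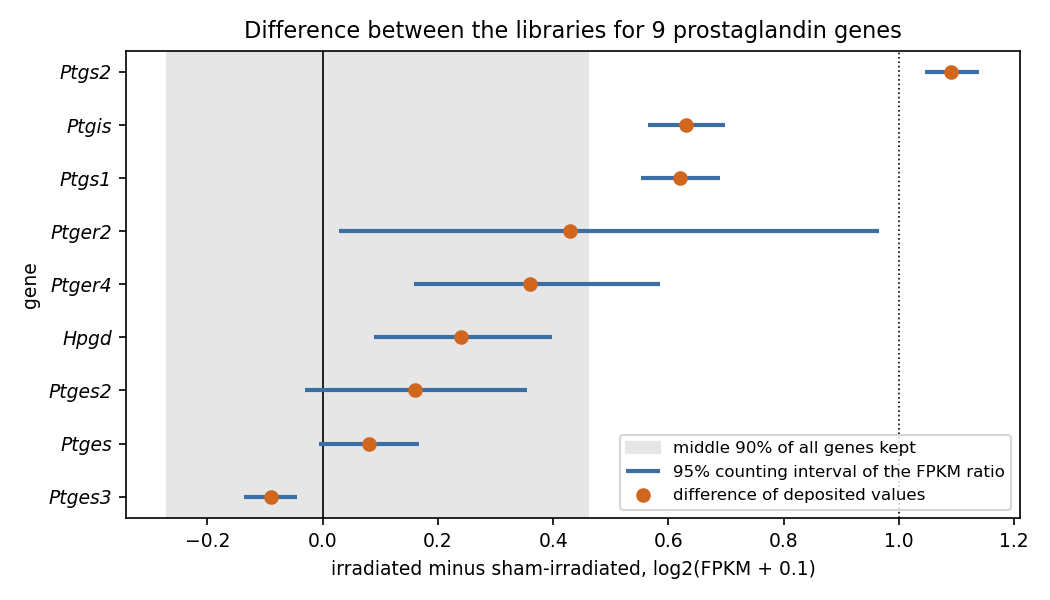
Difference between the libraries (irradiated minus sham-irradiated, log2(FPKM + 0.1), horizontal axis) of 9 prostaglandin genes, with the 95% counting intervals of their FPKM ratios as bars; the grey band is the middle 90% of the 11253 genes kept, from -0.27 to 0.46, and the dotted line is a difference of 1. Ptgs2, Ptgis and Ptgs1, at 1.09, 0.63 and 0.62, lie right of the band, and the other 6 genes lie inside it.

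Of the 8 prostaglandin genes kept, 1 was higher by at least 1, and this was Ptgs2, against 0.791% of all genes kept. None of the 8 was lower by at least 1, against 0.373%. At a difference of 0.5, 3 of the 8 were higher (Ptgs2, Ptgis and Ptgs1), against 4.31%, and 0 were lower, against 1.44%. The counting interval lay above 0 for 5 of the 8, against 23.8%, and below 0 for 1 of the 8, against 17.4%. A share of this kind over 8 genes describes them and does not set them apart, since they were chosen with earlier results of these data known.

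**Figure D3:**
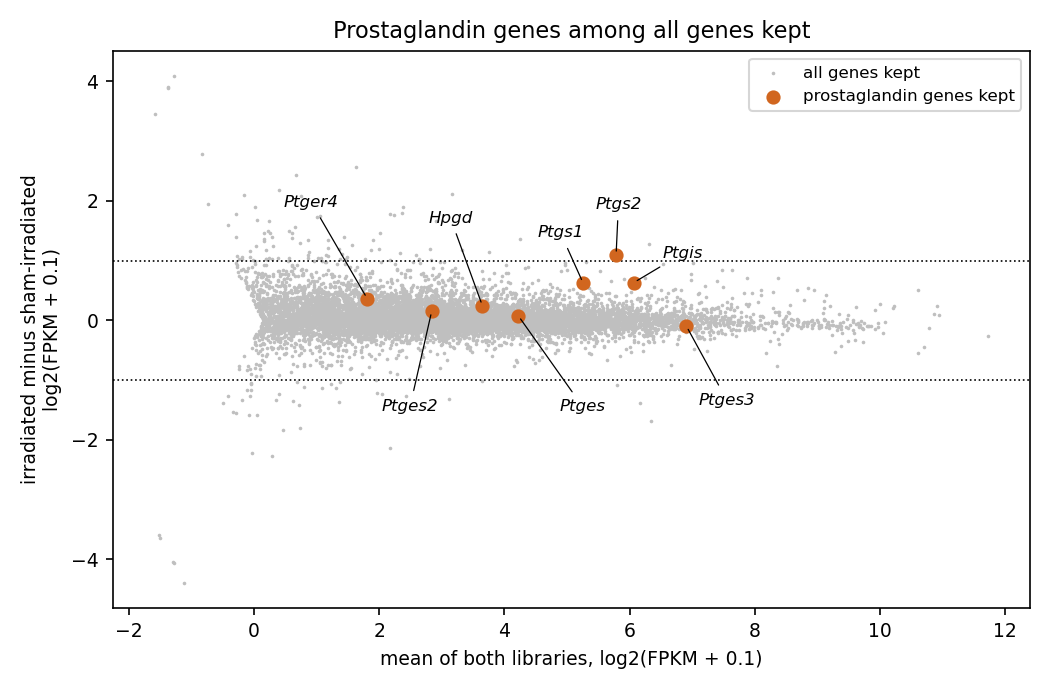
Difference between the libraries (vertical axis, log2(FPKM + 0.1), irradiated minus sham-irradiated) against the mean of both libraries (horizontal axis, same scale) for the 11253 genes kept (grey) and the 8 prostaglandin genes kept (orange). Dotted lines mark differences of -1 and 1; only Ptgs2, at 1.09, lies beyond one of them among the orange points.

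Of the 10 genes, 5 lie on chromosome 2 (Ptgds, Ptges, Ptges2, Ptgs1 and Ptgis), spread over 141.8 Mb. They did not share a difference, since Ptgis and Ptgs1 were higher by 0.63 and 0.62 while Ptges and Ptges2 were higher by 0.08 and 0.16. Genes near the 3 that differed most were read for comparison, chosen after the values were seen. Within 250 kb of Ptgs2, 3 other genes were kept, with differences from -0.22 to 0.24. One was Pla2g4a, which encodes the cytosolic phospholipase that releases arachidonic acid and lies 138.7 kb away, with a difference of 0.15. Another was Ptgs2os, annotated on the opposite strand with its start 157 bases from that of Ptgs2, with a difference of 0.24. Differences were from 0.12 to 0.15 for the 3 genes kept near Ptgs1 and from -0.11 to 0.42 for the 8 kept near Ptgis. Each of the 3 prostaglandin genes had a larger difference than every gene kept in its window. Since the 3 were picked for their large differences, nothing is concluded from this. Lhx6, near Ptgs1 and under the FPKM filter, had a larger difference than Ptgs1, 0.73, at an FPKM of 0.432 and 0.783.

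Around these 10 genes, 9 lists of related genes were read, with 132 entries in the table and 89 kept. Of the 89, 1 was higher by at least 1 (1.12%, against 0.791% of all genes kept) and 1 was lower (1.12%, against 0.373%). The median difference of the 89 was 0.05, against 0.02 for all genes kept. At 0.5, 8 of the 89 were higher (8.99%, against 4.31% of all genes kept) and 2 were lower (2.25%, against 1.44%). Each list is small, and its counts are to be read against the same 4.31% and 1.44% at 0.5 and against the 53.5% of all genes kept that had a difference above 0.

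Upstream of the cyclooxygenases, 7 of 21 phospholipase A2 genes were kept, and 0 of them differed by 0.5, against 4.31% higher and 1.44% lower among all genes kept. Pla2g4a, named after its value was seen, had an FPKM of 33.5 without radiation and 37.2 after radiation. The largest difference was that of Pla2g7, which encodes the enzyme that inactivates platelet-activating factor, at 0.43. Its FPKM was 26.6 and 35.9. Of the 9 other prostanoid synthase genes, 0 were past 0.5, and the median difference was 0.07. Among them, Hpgds, the hematopoietic prostaglandin D synthase gene, had the largest difference, 0.43, with an FPKM of 2.07 and 2.83. Of the genes of the D synthases, Hpgds was thus above the counting limit and Ptgds was not.

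Among 7 other genes of prostaglandin breakdown and transport, Akr1c18 was the only one past 1. It encodes an aldo-keto reductase known for inactivating progesterone and for acting on prostaglandins, and it had an FPKM of 8.96 without radiation and 20.01 after radiation. The difference was 1.15, with a counting interval from 0.97 to 1.35. Akr1c genes are a family of similar sequence, so fragments could have been shared between copies in counting. Slco2a1, the prostaglandin uptake transporter gene, had 9.15 and 11.8, a difference of 0.36, and was named after its value was seen.

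Of 8 other genes listed with the prostanoid receptors, 5 were kept, with a median difference of -0.01. One of the 5, Ptgfrn, encodes a regulator of the prostaglandin F receptor and not a receptor, and had an FPKM of 32.1 and 31.9. Ptgir, the gene of the prostacyclin receptor, had an FPKM of 7.63 without radiation and 7.57 after radiation, and its counting interval, from -0.15 to 0.13, included 0. Thus Ptgis was higher and the gene of the receptor for its product was within counting error. The largest difference was that of Ptgfr, the gene of the prostaglandin F receptor, at -0.59, with 1.77 and 1.14. Ptger3, the gene of the EP3 receptor that lowers cyclic AMP, had 1.16 and 1.56, a difference of 0.40. Ptger1 had 0.133 and 0.140, and Ptgdr had no fragments in either library. Ptgfrn, Ptgir and Ptger3 and the receptors with few fragments were named after their values were seen.

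Downstream of EP2 and EP4, 22 of 26 genes of cyclic AMP signalling were kept, with a median difference of 0.115 and 1 past 0.5. That gene was Rapgef3, a cyclic AMP-activated exchange factor, at 0.61, with an FPKM of 1.002 and 1.58. Gnas, the gene of the stimulatory G protein subunit, had 83.2 and 82.04, and was named after its value was seen. Of the 22, the counting interval lay above 0 for 10, against 23.8% of all genes kept, and below 0 for 2, against 17.4%. Of 12 genes known to be induced by cyclic AMP, 8 were kept, and 7 of the 8 had a difference above 0, against 53.5% of all genes kept, with a median of 0.25. The counting interval lay above 0 for 5 of the 8 and below 0 for 0, against the same 23.8% and 17.4%. The nuclear receptor genes Nr4a1 and Nr4a2 both had a difference of 0.77, the largest of that list, with an FPKM of 1.33 and 2.35 for Nr4a1 and of 0.701 and 1.27 for Nr4a2. Such genes also respond to other signals.

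Genes linked to Ptgs2 and Ptges, a mix of inducers, inhibitors and genes induced alongside them, differed in both directions. Of 20 kept, 7 had a difference above 0, against 53.5% of all genes kept, and the median was -0.06. The counting interval lay below 0 for 9 of the 20, against 17.4% of all genes kept, and above 0 for 2, against 23.8%. Nos2, the inducible nitric oxide synthase gene, often induced together with Ptgs2 in inflammation, was lower by over 1. It had an FPKM of 3.98 without radiation and 1.49 after radiation, a difference of -1.36 with a counting interval from -1.65 to -1.19. Named after their values were seen, Il1r1, an interleukin-1 receptor gene, had a difference of -0.31, and Egr1, an immediate-early transcription factor gene, a difference of 0.51. Il1b, the interleukin-1 beta gene, also named after its value was seen, had 22 fragments in each library.

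Many genes of the branches that share arachidonic acid with the cyclooxygenases lay under the FPKM filter. In the leukotriene and lipoxygenase branch, 8 of 20 genes were kept, with a median difference of -0.15. The largest difference was that of Mgst2, at 0.67, on 13 and 25 fragments, with a counting interval from -0.27 to 1.84 that included 0. In the epoxide branch, 3 of 8 genes were kept, and 2 of these were higher by at least 0.5, against 4.31% of all genes kept. Cyp4f13, a fatty acid hydroxylase of the cytochrome P450 family, had an FPKM of 1.04 and 2.00, a difference of 0.88. Ephx1, an epoxide hydrolase gene named after its value was seen, had 22.4 and 39.6, a difference of 0.82. Cyp2j6, the other gene kept, had 4.93 and 5.14, a difference of 0.06 with a counting interval from -0.11 to 0.23. Ephx2, under the FPKM filter, had a difference of 0.02 on 61 and 71 fragments. Cyp2j6 and Ephx2 were also named after their values were seen.

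**Figure D4:**
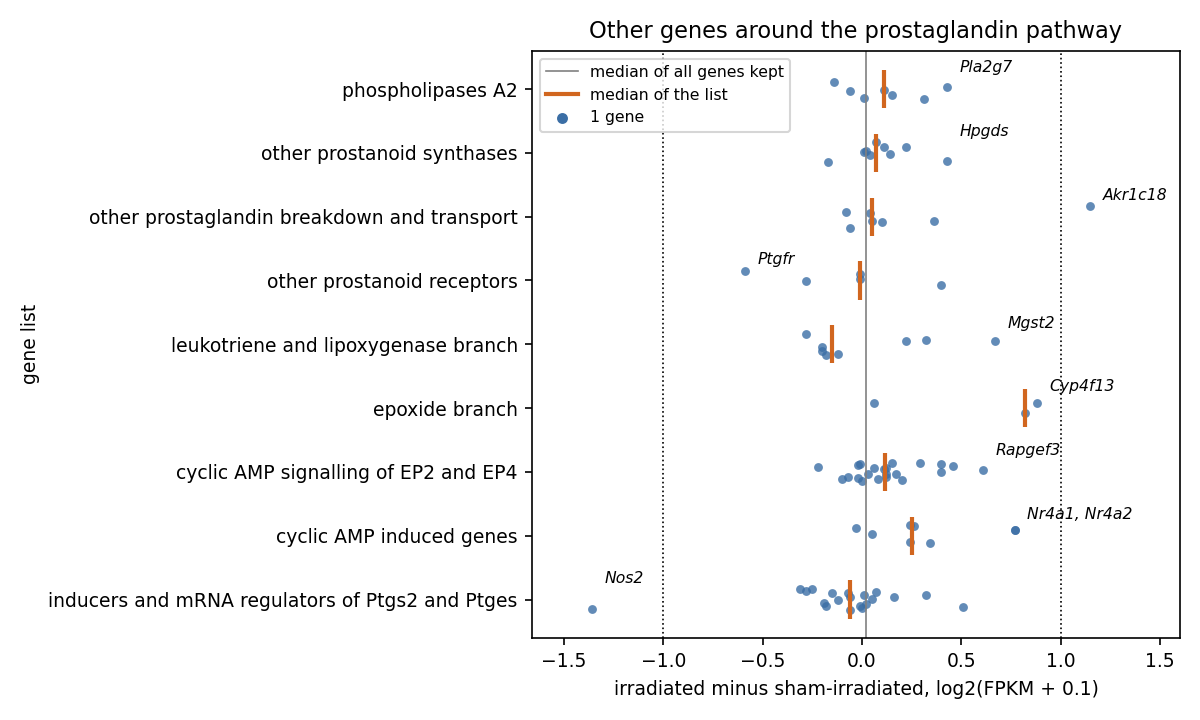
Difference between the libraries (horizontal axis, irradiated minus sham-irradiated, log2(FPKM + 0.1)) of the 89 genes kept in 9 lists around the prostaglandin pathway; each point is 1 gene, orange bars are list medians, the grey line is the median of all genes kept, 0.02, and dotted lines mark -1 and 1. Akr1c18, at 1.15, and Nos2, at -1.36, are the points beyond the dotted lines.

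Markers of several cell types also differed between the libraries, and their part in the prostaglandin results was not tested. Each summed FPKM covers every gene of its list, kept or not. Of 10 mesothelial genes, all kept, 9 were higher by at least 0.5, against 4.31% of all genes kept. Their median difference was 1.065, and the summed FPKM was 38.1 without radiation and 55.7 after radiation. Msln, the mesothelin gene, had the largest difference, 2.18. Wt1, the most abundant gene of that list and named after its value was seen, was the exception. It had an FPKM of 20.4 and 18.7, a difference of -0.13. Of 13 macrophage genes, 12 were kept, and 5 of these were higher by at least 0.5, against the same 4.31%. The median was 0.41, and the summed FPKM was 647.03 and 696.5. Lyz2, named after its value was seen, made up 442.5 and 410.0 of these sums and had a difference of -0.11. C1qa and C1qc, complement genes, both had 0.80, whereas Adgre1, which encodes the marker F4/80, had -0.02. Mast cell genes went the other way, with 0 of 6 genes kept above 0, a median of -0.71 and a summed FPKM over all 9 of 20.8 and 12.1. Cpa3, a mast cell protease gene, had 3.29 and 1.93, and Tpsb2, a tryptase gene, had the largest difference, -1.0.

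The other marker lists with genes kept had median differences closer to that of all genes kept. Fibroblast and progenitor genes had a median difference of -0.06 over 12 genes and a summed FPKM of 5350 and 4417, and Postn, a matrix protein gene, had the largest, -0.55. Endothelial genes had a median of 0.185 over 10 genes and sums of 56.4 and 63.7, with Pecam1 at 0.17 and Esam, a junction gene, at 0.49. Of 14 adipocyte genes, 5 were kept, with a median of 0.03, sums of 294.9 and 338.1, and the largest difference at Cd36, a fatty acid transporter gene, 0.45. Cd36 made up 117.7 and 160.8 of these sums, while Fabp4 had 96.9 in each library and Lpl 68.02 and 66.6. Of 9 lymphocyte genes, 2 were kept, with a median of -0.245 and the largest difference at Cd3g, a T cell receptor subunit gene, -0.77. The sums were 8.18 and 8.04, of which Ptprc, a gene of leukocytes in general, made up 5.33 and 6.49. Among the lymphocyte genes not kept, Cd79a had 29 and 8 fragments, a difference of -1.58. Nkg7, on 3 and 5 fragments, was the only one of these that was higher, at 0.33. Ptprc, Cd79a and Nkg7 were named after their values were seen. Of 8 epididymal genes, 6 had no fragments in either library, and 0 were kept. None of the defining markers Adipoq, Plin1, Pdgfra, Col1a1, Adgre1, Pecam1, Msln and Cpa3 was at 0 in either library. Adipoq, however, rested on only 5 and 10 fragments. Of the same adipocyte list, Lep had 0 and 2 fragments and Cidea 1 and 0, both named after their values were seen.

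**Figure D5:**
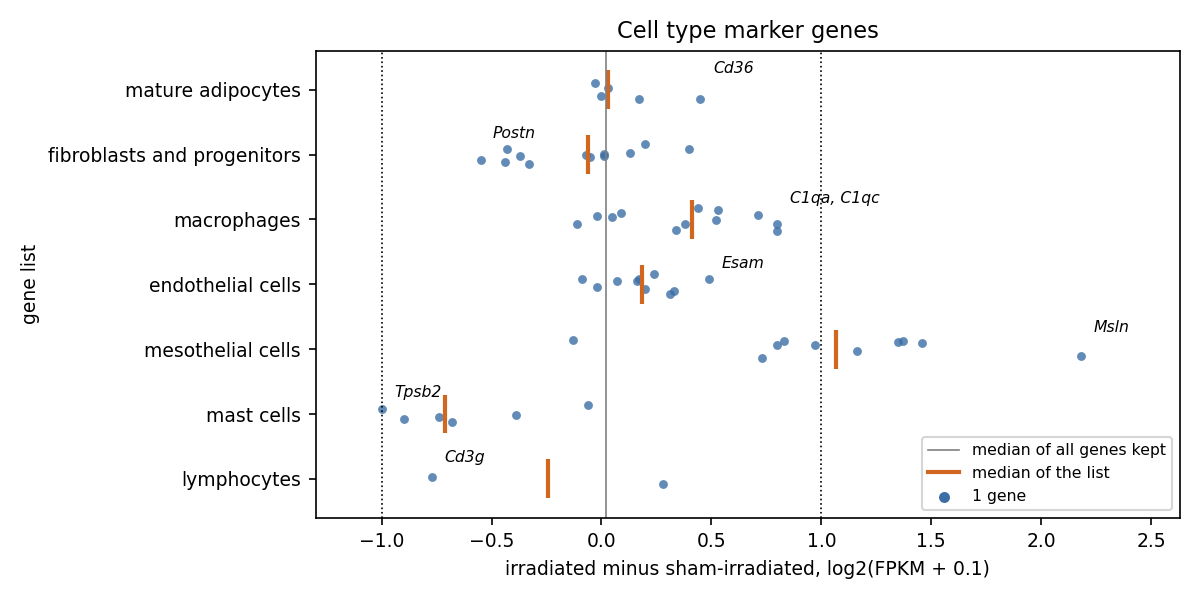
Difference between the libraries (horizontal axis, irradiated minus sham-irradiated, log2(FPKM + 0.1)) of the marker genes kept for 7 cell types; each point is 1 gene, orange bars are list medians and the grey line is the median of all genes kept, 0.02. Mesothelial and macrophage medians lie to the right, at 1.065 and 0.41, and the mast cell median to the left, at -0.71.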

How the data were processed

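The authors deposited 1 table of log2 values per library, in which 0.1 had been added to each FPKM and the result rounded to 2 decimals. The labels name polyadenylated RNA, a stranded Illumina preparation and the build mm10. No aligner, counting tool or filter is named there. Samples were grouped by their treatment label, and both columns carry the sample titles.

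FPKM was recovered as 2 to the power of each deposited log2 value, less 0.1. Depth was taken as the smallest total at which FPKM times gene length came close to whole fragments, refined to the best fit near it. The smallest was taken because multiples of a depth also give whole numbers. All 2570 and 2518 genes with few fragments lay within 0.12 of a whole number in the sham-irradiated and irradiated libraries. The procedure was tested on simulated data. Fragments of abundant genes are approximate because of rounding. Intervals of ratios of single genes between libraries are exact Clopper-Pearson; those of shifts in a ratio of 2 genes use a normal approximation on 4 counts. PCR copies are not independent molecules.

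All 10 genes were named, and in each list the gene kept with the largest difference, any past 1 and the defining markers; others are stated as chosen after their values were seen. The genes and lists were chosen with earlier results of these data known. Of 135 list names around the pathway, 3 were other symbols of listed genes and had no entry. Motif shares cover all RefSeq windows; overlaps and copies of genes were read from GENCODE M21. Alternatives were another pseudocount, filter, scaling, threshold and the mean. Scripts ran in Python 3.11.15 with SciPy 1.17.1, pandas 2.3.3, numpy 2.4.6 and, for plots, matplotlib 3.10.9.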

Additional observations from a re-analysis of the deposited data

How the results depend on the processing

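No paired analysis was possible because 1 library stood for each condition, and leaving one out would leave nothing to compare. Each of the 9 differences of prostaglandin genes stayed inside its counting interval with log2(FPKM + 1), without a pseudocount, centred on the median difference and scaled without the 100 most abundant genes, which shifted all genes by -0.016. Ptgs2 ranged from 1.07 to 1.09 over these settings. Ptger2 moved most, from 0.197 with log2(FPKM + 1) to 0.495 without a pseudocount, since the added constant weighs most at low FPKM. The synthesis median ranged from 0.37 to 0.415, its mean, and the receptor median from 0.242 to 0.433.

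With a threshold of 0.5, 3 prostaglandin genes were higher, and with a threshold of 2 there were 0, against 1 at the threshold of 1. Over the 9 related lists, 1 gene was higher and 1 lower at the threshold of 1. At 0.5 these counts were 8 and 2, and at 2 they were 0 and 0. Without the filter 2 were higher, and with an FPKM of at least 5 there were 0 lower. Over all genes, 89 were higher and 42 lower by at least 1. These counts were 29 and 17 with log2(FPKM + 1), 267 and 148 without the filter, and 23 and 10 with an FPKM of at least 5. Depth limits Ptgds, on 1 and 2 fragments, and Ptger2, on 64 and 103.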

Other observations

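Other mast cell genes, named after their values were seen, went in the direction of Cpa3 and Tpsb2. Cma1, a chymase gene, had an FPKM of 4.40 without radiation and 2.31 after radiation, and Mcpt4, another chymase gene, had 3.22 and 1.97. Kit, the receptor gene on which mast cells depend, had a difference of -0.39. Hdc, which makes histamine, had -0.06, with a counting interval from -0.50 to 0.36 that included 0.

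Ltb4r2, a gene of a leukotriene B4 receptor, lay under the FPKM filter, with 2 fragments without radiation and 14 after radiation. Its counting interval ran from 0.49 to 5.79 on the log2 scale. The other leukotriene B4 receptor gene, Ltb4r1, also under the filter, had 35 and 23 fragments, a difference of -0.69 with a counting interval from -1.63 to -0.00059. Both were named after their values were seen.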
